A study of Homo sapiens with 6 samples.

Results

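The transcription factor NRF2, encoded by NFE2L2, its negative regulators KEAP1 and BACH1, and 7 antioxidant and detoxifying target genes (NQO1, SRXN1, TXNRD1, OSGIN1, ME1, PIR and AKR1C1) were followed in MDA-MB-231 cells, a long-established human line derived from triple-negative breast cancer. The 10 genes were chosen by name, and each had 1 row among the 58735 genes of the count table. RNA sequencing covered 6 libraries. In 3 of them (OE) the cells had been transfected with DNAJC12v and carried the genotype DNAJC12 overexpression. In the other 3 (VEC) they had been transfected with the empty vector. DNAJC12 is a J-domain co-chaperone, and no other allele or agent is named for either group. Whether separate cultures lie behind the 3 libraries of a group is not stated in the labels, so the spread that p-values measure here may be technical.

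NRF2 is a basic leucine zipper factor whose level is set largely by protein turnover. KEAP1 is the adaptor that hands NRF2 to the CUL3 ubiquitin ligase for degradation, and it loses this hold when oxidants or electrophiles modify its cysteines. NRF2 that escapes pairs with small MAF proteins on antioxidant response elements and switches on genes for quinone reduction, thioredoxin and glutathione recycling and NADPH supply. BACH1, a haem-sensing factor of a related family, occupies the same elements as a repressor. Since NRF2 is governed mostly at the protein, the NFE2L2 transcript and NRF2 activity are different quantities, and only transcripts were measured here.

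The libraries held 17967283 to 18887497 counts, and 14520 genes were tested. DNAJC12 itself had 522, 523 and 492 counts in OE replicates 1 to 3, against 1, 0 and 0 counts in VEC. OE replicate 2 stood apart from its group by GC content. When the tested genes were cut into 5 equal bins of transcript GC content, its median log2 gap to replicates 1 and 3 was -1.09 in the GC-poorest bin and 0.73 in the GC-richest. VEC replicate 2 had gaps of -0.41 and 0.27 in those bins. Gene values in CPM are counts scaled by library size and by edgeR's TMM factor for the library. Compared with library size alone, this factor raised the values of OE replicate 2 and lowered those of OE replicate 1. With library totals of 18340306 and 18563750, the 522 and 523 DNAJC12 counts of OE replicates 1 and 2 became 26.2 and 33.1 CPM. The line's own markers VIM, CD44, AXL and CAV1 summed to 3717 to 4367 CPM in OE and 3110 to 3359 CPM in VEC. The hormone receptor genes ESR1 and PGR were under 1 CPM in every library. ERBB2, also listed as low in this line, averaged 8.19 FPKM, which scales by gene length as well, in OE and 10.2 FPKM in VEC, and CDH1 averaged 0.644 and 0.637 FPKM. Of 10 markers of blood, endothelial and fat cells, 8 were under 1 CPM in every library, and CD3E and ADIPOQ had no count. The list summed to 11.0 to 17.8 CPM in OE and 24.3 to 29.3 CPM in VEC. PECAM1, an endothelial and platelet adhesion gene, carried that difference, at 5.51, 4.43 and 3.81 CPM in OE against 22.7, 15.1 and 17.0 CPM in VEC, with an adjusted p of 0.0125 in edgeR's quasi-likelihood test. Without it the list summed to 5.51 to 13.4 CPM in OE and 6.65 to 9.18 CPM in VEC, and its part in the results below was not tested.

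None of the 10 genes passed the comparison of OE with VEC, although 9 of them had a log2 fold change above 0. At an adjusted p under 0.05 (edgeR quasi-likelihood, Benjamini-Hochberg), 1.25% of all tested genes were called and 0 of the 10 members, all of which were tested. The count of members stayed at 0 with DESeq2, which called 3.13% of genes, with DESeq2 size factors in edgeR (1.21%), with no filter on low counts (2.52%) and with a filter of 1 CPM in 3 libraries (1.30%). It was 0 also with limma on log2 FPKM, which called 1.24% of genes with either pseudocount and 0.0439% with no filter. At an unadjusted p under 0.05, NFE2L2 and ME1 were higher, which is 2 of 10 members beside 7.25% of all tested genes, and none was lower, beside 6.86%. In bulk RNA, a different share of responding cells and a different amount of RNA per cell cannot be told apart. The median log2 fold change was 0.33 over the members and 0.05 over all tested genes, where 54.9% of values were above 0. In TMM-scaled CPM, no member had all 3 OE libraries above or all 3 below the 3 VEC libraries. On that scale the pattern was found in 9.26% of tested genes in the higher and 10.8% in the lower direction. For NQO1 this depended on the scaling, as its unscaled counts below show.

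**Figure D1:**
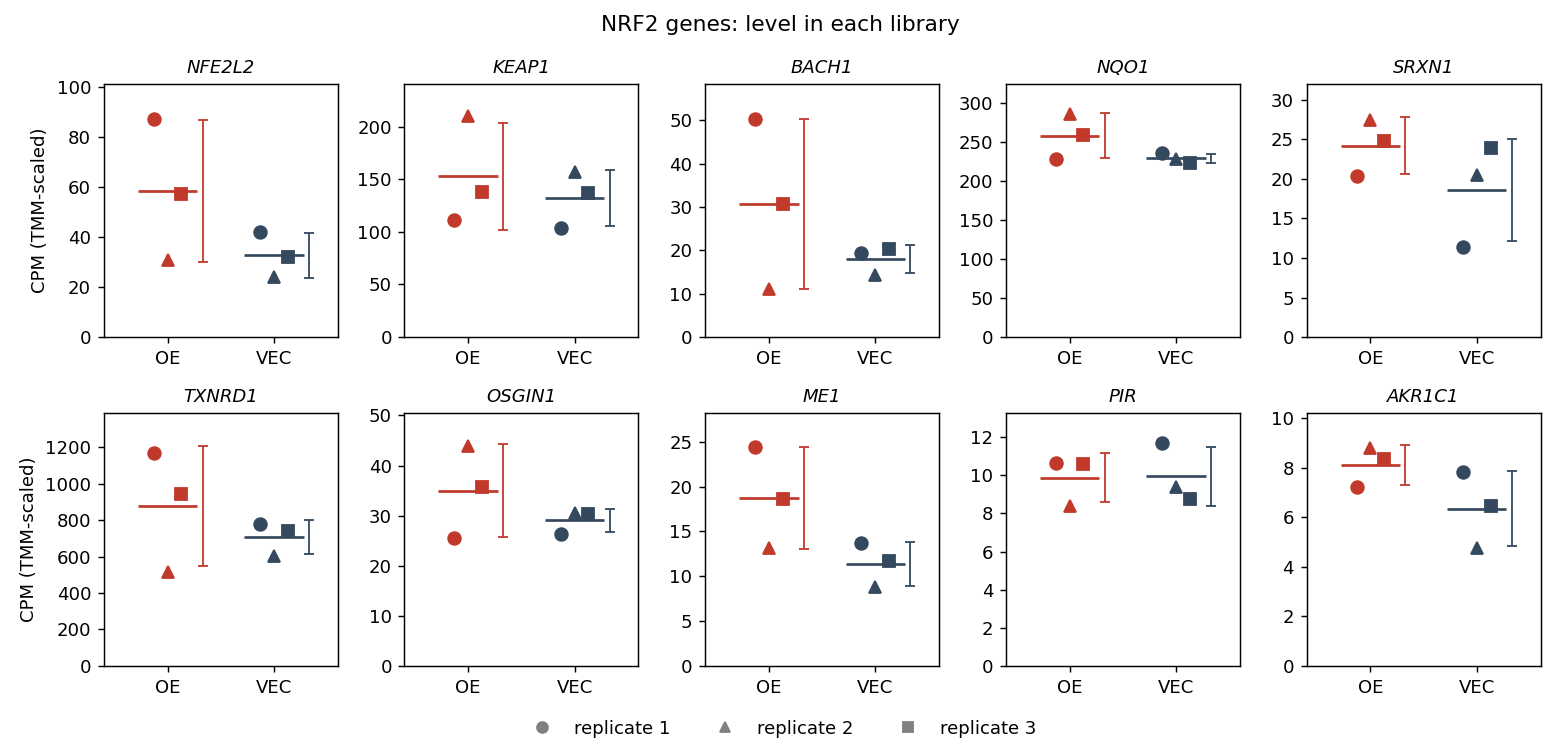
TMM-scaled CPM of each of the 10 genes (vertical axes, linear, from 0) in the 3 OE libraries, left, and the 3 VEC libraries, right. Marker shapes give the replicate number, horizontal lines the group mean and bars 1 SD on each side (n = 3). In NFE2L2, BACH1, TXNRD1, ME1 and PIR OE replicate 2 is the lowest OE library, and in KEAP1, NQO1, SRXN1, OSGIN1 and AKR1C1 it is the highest.

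NFE2L2, the gene of the factor itself (ENSG00000116044, minus strand of chromosome 2, 177227595 to 177392697 in GRCh38), was at 87.4, 30.7 and 57.2 CPM in OE replicates 1 to 3, against 42.1, 23.9 and 32.1 CPM in VEC replicates 1 to 3. OE replicates 1 and 3 lay above every VEC library, while OE replicate 2 was within the VEC range. The means were 58.4 ± 28.4 CPM in OE and 32.7 ± 9.11 CPM in VEC (SD, n = 3 each). The log2 fold change was 0.84 ± 0.37 SE, with a 95% interval of 0.01 to 1.66 and an adjusted p of 0.347 by edgeR. NFE2L2 exons share 54 bases with AGPS on the opposite strand and 1054 bases with the sense-overlapping gene AC019080.1. Whether counting used strand is not stated, so the share of reads from such neighbours is uncertain. AC019080.1 had 52, 17 and 42 counts in OE and 24, 14 and 25 in VEC, beside 1745, 485 and 1094 counts for NFE2L2 in OE and 785, 430 and 603 in VEC.

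BACH1, the repressor (ENSG00000156273, plus strand of chromosome 21, 29194071 to 29630751), spread most of all members within OE. It was at 50.2, 11.0 and 30.6 CPM in OE replicates 1 to 3, against 19.3, 14.2 and 20.4 CPM in VEC. OE replicate 2 was below every VEC library, and OE replicates 1 and 3 were above every one. The coefficient of variation was 64.0% in OE and 18.2% in VEC, and the log2 fold change of 0.77 ± 0.46 SE had a 95% interval of -0.25 to 1.79. KEAP1, the adaptor (ENSG00000079999, minus strand of chromosome 19, 10486120 to 10503741), ran the other way across the libraries. It was at 111, 210 and 138 CPM in OE replicates 1 to 3, against 104, 157 and 137 CPM in VEC. Replicate 2 was the highest library in both groups, replicate 1 the lowest, and the groups overlapped. Its log2 fold change was 0.21 ± 0.27 SE, with a 95% interval of -0.41 to 0.82.

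Of the targets, TXNRD1, the cytosolic thioredoxin reductase, and ME1, the cytosolic malic enzyme that supplies NADPH, shared with NFE2L2 their 3 highest libraries, OE replicates 1 and 3 and VEC replicate 1. TXNRD1 (ENSG00000198431, plus strand of chromosome 12, 104215779 to 104350305) was at 1169, 518 and 942 CPM in OE replicates 1 to 3, against 781, 601 and 742 CPM in VEC. OE replicate 2 was the lowest of all 6 libraries and OE replicates 1 and 3 were the highest. The log2 fold change of 0.31 ± 0.29 SE had a 95% interval of -0.34 to 0.96. ME1 (ENSG00000065833, minus strand of chromosome 6, 83210389 to 83431071) was at 24.4, 13.2 and 18.6 CPM in OE, against 13.7, 8.84 and 11.7 CPM in VEC. Each OE library was above the VEC mean, and only VEC replicate 1 exceeded OE replicate 2. The means were 18.7 ± 5.65 CPM in OE and 11.4 ± 2.46 CPM in VEC (SD, n = 3 each). The log2 fold change of ME1 was 0.71 ± 0.30 SE, with a 95% interval of 0.04 to 1.39 and an adjusted p of 0.332 by edgeR.

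NQO1, the quinone reductase most used as a readout of NRF2 activity, was nearly level. The gene (ENSG00000181019, minus strand of chromosome 16, 69706996 to 69726951) was at 228, 286 and 259 CPM in OE, against 235, 228 and 223 CPM in VEC. On this TMM scale the VEC libraries lay within a coefficient of variation of 2.64%, and OE replicate 1 was among them. In unscaled counts NQO1 had 4560, 4520 and 4961 in OE and 4387, 4095 and 4193 in VEC, so all 3 OE libraries lay above VEC. The log2 fold change was 0.17 ± 0.19 SE, and its 95% interval of -0.25 to 0.59 left out a doubling. The intervals of KEAP1, TXNRD1, OSGIN1, PIR and AKR1C1 left it out too. SRXN1, sulfiredoxin, which repairs over-oxidised peroxiredoxins (ENSG00000271303, minus strand of chromosome 20, 646615 to 653370), was at 20.3, 27.4 and 24.8 CPM in OE and 11.4, 20.5 and 23.9 CPM in VEC. VEC replicate 1 was the low library, and the remaining 5 lay close together. OSGIN1, an oxidative stress-induced growth inhibitor (ENSG00000140961, plus strand of chromosome 16, 83948282 to 83966332), was at 25.4, 43.9 and 35.6 CPM in OE and 26.3, 30.5 and 30.3 CPM in VEC. OE replicate 1 was the lowest of all 6 libraries and OE replicate 2 the highest. Their log2 fold changes were 0.38 ± 0.30 SE for SRXN1 and 0.27 ± 0.25 SE for OSGIN1. SRXN1 shares 2292 exon bases with the overlapping gene AL121758.1 on the same strand, which had at most 3 counts in a library.

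PIR, pirin, an iron-binding nuclear protein (ENSG00000087842, minus strand of chromosome X, 15384799 to 15493564), was the one member with a value below 0. It was at 10.6, 8.41 and 10.6 CPM in OE and 11.7, 9.40 and 8.74 CPM in VEC, so the groups were interleaved. Its log2 fold change of -0.01 ± 0.26 SE had a 95% interval of -0.59 to 0.57. AKR1C1, an aldo-keto reductase that inactivates progesterone (ENSG00000187134, plus strand of chromosome 10, 4963253 to 4983283), was at 7.21, 8.79 and 8.36 CPM in OE and 7.83, 4.78 and 6.45 CPM in VEC. OE replicates 2 and 3 lay above every VEC library, and OE replicate 1 did not. The log2 fold change was 0.35 ± 0.28 SE. Reads of AKR1C1 are hard to place, since 16.5% of the 100-base windows of its transcripts also occur in AKR1C2 transcripts and 0.215% in AKR1C3 transcripts. AKR1C2, a close relative, averaged 1.78 ± 0.59 CPM in OE and 1.68 ± 0.32 CPM in VEC, and AKR1C3 averaged 47.1 ± 3.87 CPM in OE and 53.3 ± 7.08 CPM in VEC (SD, n = 3 each). The values of AKR1C1 and AKR1C2 are therefore uncertain.

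Per length, the members covered a wide range of abundance. The authors' FPKM divides by the merged exon length of the gene. In OE libraries TXNRD1 averaged 129 ± 48.0 FPKM, NQO1 78.4 ± 9.21, KEAP1 40.2 ± 13.7 and AKR1C1 0.916 ± 0.0964 FPKM (SD, n = 3). In VEC libraries TXNRD1 averaged 105 ± 13.6 FPKM, NQO1 69.9 ± 1.57, KEAP1 35.0 ± 7.25 and AKR1C1 0.720 ± 0.169 FPKM (SD, n = 3). These 4 held the top 3 places and the last place in both groups. TXNRD1 and NQO1 overlapped in OE and not in VEC, while KEAP1 and AKR1C1 were clear of their neighbours in both. OSGIN1, NFE2L2, SRXN1, ME1, BACH1 and PIR lay between them, with means of 10.01 down to 3.89 FPKM in OE and 8.35 down to 2.31 FPKM in VEC. In VEC each of these 6 overlapped with the next, and in OE the ranges of SRXN1 and ME1 were the one gap. NQO1 stood above 94.97% to 95.92% of the tested genes in each library, and NFE2L2 above 55.4% to 79.5%.

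**Figure D2:**
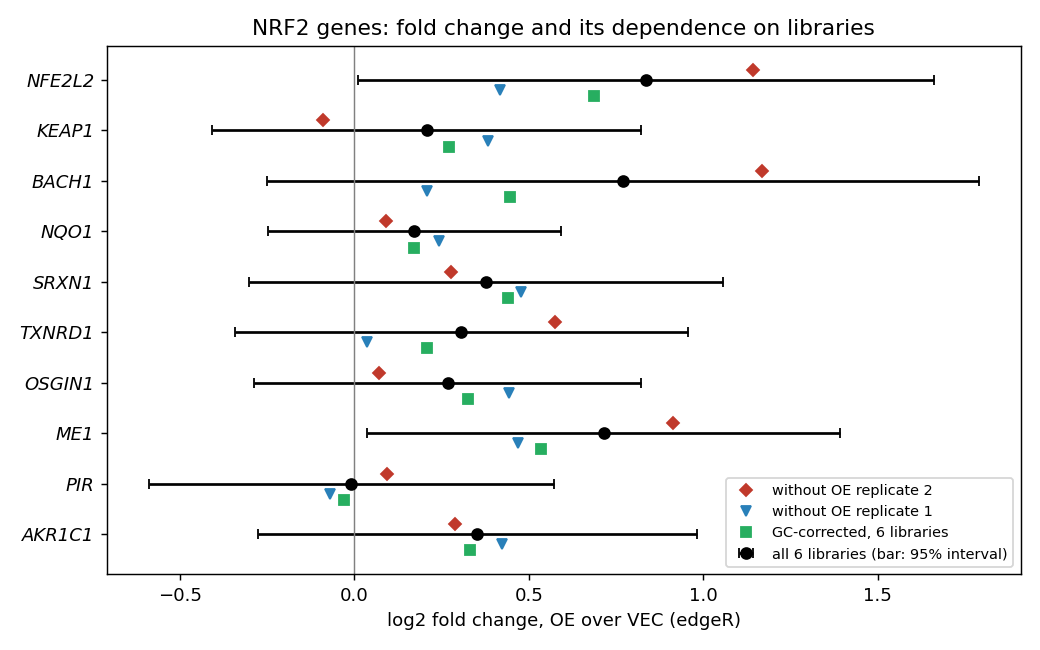
Log2 fold change of OE over VEC for the 10 genes (horizontal axis). Black points and bars give the edgeR value with all 6 libraries and its 95% interval, red diamonds and blue triangles the value without OE replicate 2 or 1, and green squares the value after correction for GC content. NFE2L2 is at 1.14 without OE replicate 2 and at 0.42 without OE replicate 1, and KEAP1 is on the other side of 0 without OE replicate 2.

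Calls among the members changed with the libraries used and with corrections for GC content or replicate number. Without OE replicate 2, NFE2L2 (log2 fold change 1.14, adjusted p = 0.0063), BACH1 (1.17, 0.00543), ME1 (0.91, 0.0169) and TXNRD1 (0.57, 0.0244) passed the edgeR test as higher. Those are 4 of 10 members, beside 12.1% of all tested genes. BACH1 and TXNRD1 passed only in fits that left out OE replicate 2. Without both libraries numbered 2, NFE2L2 (0.95), BACH1 (1.02) and ME1 (0.75) passed, 3 of 10 beside 10.3% of all tested genes. After a correction for GC content over all 6 libraries, NFE2L2 (0.69, adjusted p = 0.0151) and ME1 (0.54, 0.0339) passed, 2 of 10 beside 10.4% of all tested genes. BACH1 was then at 0.45, with 0.140 as its adjusted p, and TXNRD1 at 0.21, with 0.280. NFE2L2 (0.75, 0.00203) and ME1 (0.69, 0.0292) also passed with the replicate number as a block, beside 6.96% of all tested genes. No member passed as higher without OE replicate 1, OE replicate 3 or VEC replicates 1, 2 or 3, fits that called 0.950%, 0.128%, 0.101%, 0.141% and 0.107% of genes as higher. Without OE replicate 1 the log2 fold changes were 0.42 for NFE2L2 (adjusted p = 0.598), 0.21 for BACH1 (0.859), 0.47 for ME1 (0.547) and 0.04 for TXNRD1 (0.970). NQO1, SRXN1, OSGIN1, PIR and AKR1C1 passed in none of 17 alternative fits. KEAP1 passed in 1 of them, the GC correction with a replicate block (0.27, adjusted p = 0.0495), which called 11.7% of genes as higher and also NFE2L2 and ME1. KEAP1 had a log2 fold change of -0.09 without OE replicate 2.

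The 10 transcripts differ in base composition, and replicate 2 of each group departed from its partners in step with it. GC content was 39.5% in ME1, 40.2% in BACH1, 43.4% in NFE2L2 and 45.1% in TXNRD1, and 61.3% in KEAP1 and 61.9% in OSGIN1. The log2 gap of OE replicate 2 to the mean of OE replicates 1 and 3 was -1.88 for BACH1, -1.24 for NFE2L2, -1.03 for TXNRD1 and -0.71 for ME1. It was 0.75 for KEAP1 and 0.52 for OSGIN1, so the sign was opposite in the GC-rich members. Across the 10 genes, which share these libraries, Pearson's r between GC content and the gap was 0.77 in OE and 0.89 in VEC. AKR1C1, with a GC content of 43.0%, went against the trend in OE, with a gap of 0.17, and not in VEC, with a gap of -0.58.

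**Figure D3:**
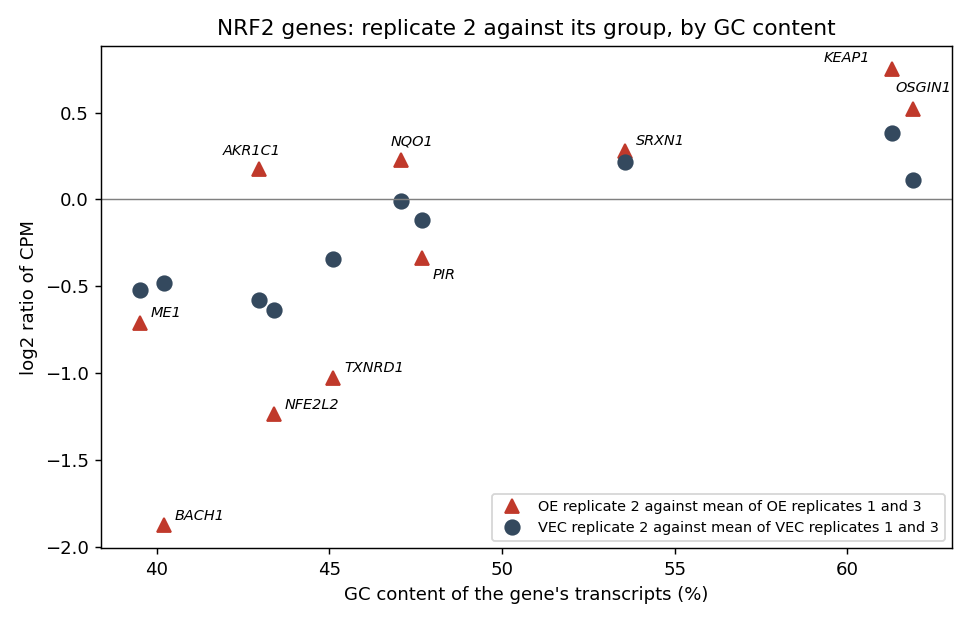
Log2 ratio of CPM in replicate 2 to the mean of replicates 1 and 3 of the same group (vertical axis) against the GC content of each gene's transcripts (horizontal axis). Red triangles are OE and dark circles VEC, and gene names stand beside the OE points. BACH1, at -1.88, is the lowest OE point and KEAP1, at 0.75, the highest.

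Members differed among themselves in how they ran over the 6 libraries. Pearson's r of log2 CPM was 0.98 for NFE2L2 with ME1, 0.99 for BACH1 with TXNRD1 and 0.92 for NFE2L2 with either BACH1 or TXNRD1. KEAP1 went with OSGIN1, at 0.91, and against PIR, at -0.84, and TXNRD1, at -0.78. NFE2L2 and NQO1 had an r of -0.08. Over 9683 other protein-coding genes that averaged 5 CPM or more, the patterns most like that of NFE2L2 were those of TRA2A, RIC1 and PEG10, with r of 0.999, 0.998 and 0.998. Their transcripts had GC contents of 41.7, 44.1 and 46.2%, and their edgeR adjusted p were 0.419, 0.523 and 0.343. These correlations are descriptions over 6 libraries that share the GC trend and the group difference.

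The starts of the members were read for the antioxidant response element that NRF2 binds. The windows ran from 250 bases before to 50 after each gene start in RefSeq (GRCh38.p14), and all 10 members matched, with 15 windows between them. The core TGACNNNGC, on either strand, was in 5 of the 15 member windows, beside 13.3% of all 35116 windows. Those 5 belong to ME1, TXNRD1, KEAP1 and PIR. The longer form, the core followed by A, was in 2 of the 15, 1 of TXNRD1 and 1 of KEAP1, and in 3.18% of all windows. Of these, 4 windows are shown, chosen with the calls known. ME1 and TXNRD1 passed without OE replicate 2, PIR, which also holds the core, did not, and KEAP1 is itself a regulator of the factor. NFE2L2 and BACH1 passed in the same fit with no core match in their windows, so a match and a call did not go together throughout. The windows shown are written 5′ to 3′ on the gene's strand, with each core match in capitals:
ME1, chr6:83431002-83431301, minus strand: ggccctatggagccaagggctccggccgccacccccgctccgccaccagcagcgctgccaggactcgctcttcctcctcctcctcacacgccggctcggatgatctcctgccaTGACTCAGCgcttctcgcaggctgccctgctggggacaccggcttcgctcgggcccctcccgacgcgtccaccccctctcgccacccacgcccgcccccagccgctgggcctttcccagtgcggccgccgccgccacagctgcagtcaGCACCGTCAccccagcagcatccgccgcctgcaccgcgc
PIR, chrX:15493284-15493583, minus strand: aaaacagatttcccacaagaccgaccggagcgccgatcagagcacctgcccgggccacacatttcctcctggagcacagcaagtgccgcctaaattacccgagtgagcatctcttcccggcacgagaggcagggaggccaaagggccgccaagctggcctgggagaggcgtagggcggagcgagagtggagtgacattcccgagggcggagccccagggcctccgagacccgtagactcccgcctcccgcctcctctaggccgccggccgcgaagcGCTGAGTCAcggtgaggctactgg
TXNRD1, chr12:104286782-104287081, plus strand: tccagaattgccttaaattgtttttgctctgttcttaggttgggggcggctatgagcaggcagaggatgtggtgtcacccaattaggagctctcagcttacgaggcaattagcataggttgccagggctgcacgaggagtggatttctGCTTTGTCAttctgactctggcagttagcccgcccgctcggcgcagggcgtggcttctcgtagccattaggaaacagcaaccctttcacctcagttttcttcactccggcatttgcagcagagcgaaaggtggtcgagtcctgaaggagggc
KEAP1, chr19:10502722-10503021, minus strand: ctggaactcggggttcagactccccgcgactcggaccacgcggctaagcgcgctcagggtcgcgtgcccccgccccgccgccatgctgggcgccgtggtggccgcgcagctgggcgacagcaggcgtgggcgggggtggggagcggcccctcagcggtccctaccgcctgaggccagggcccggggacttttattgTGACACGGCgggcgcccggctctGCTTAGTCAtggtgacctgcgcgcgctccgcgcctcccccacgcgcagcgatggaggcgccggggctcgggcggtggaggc

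The first match of ME1, TGACTCAGC, starts 137 bases before the gene start, and the only match of PIR, GCTGAGTCA, lies 26 bases after it and is the reverse complement of the same 9 letters. Both overlap the AP-1 motif TGAGTCA, which is in 4.95% of all windows. The TXNRD1 match GCTTTGTCA belongs to the longer form, and a second TXNRD1 window, at the upstream start, held TGACTTCGC and GCTCCGTCA. In KEAP1 the 2 matches lie 54 and 31 bases before the start, and the nearer one, GCTTAGTCA, belongs to the longer form. A match is a run of letters and not a measured site. NFE2L2, BACH1, NQO1, SRXN1, OSGIN1 and AKR1C1 had no core match in these windows, which leaves out elements lying farther away.

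Other NRF2 target genes had values on both sides of 0. Of 28 such genes 27 were tested, GPX2 being too low, and edgeR called 0 of them, with 4 higher and 3 lower by unadjusted p at the same threshold. Those 4 and 3 genes are 14.8% and 11.1% of the list, beside 7.25% and 6.86% of all tested genes. The DESeq2 test called SLC7A11, and limma on log2 FPKM called 0. The median log2 fold change was 0.22, with 16 values (59.3%) above 0 and 11 below, beside 54.9% above 0 over all tested genes. Without OE replicate 2 the median was -0.00285 with 13 of 27 above 0, and without both libraries numbered 2 it was 0.00897 with 14 above 0. In 3 genes, 11.1% beside 9.26% of all tested genes, every OE library was above every VEC library, and in 4 genes, 14.8% beside 10.8%, every one was below.

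HMOX1, haem oxygenase, was at 28.6, 48.9 and 33.5 CPM in OE, against 23.6, 23.3 and 25.2 CPM in VEC. Its log2 fold change was 0.62 ± 0.25 SE, with an adjusted p of 0.307 by edgeR, and all 3 OE libraries were above VEC. The HMOX1 value was 0.37 without OE replicate 2 (adjusted p = 0.148) and 0.34 without both libraries numbered 2 (0.316). ABCC3, an export pump for conjugates, was at 71.9, 102 and 77.3 CPM in OE, against 55.1, 57.7 and 54.6 CPM in VEC, a log2 fold change of 0.59 ± 0.21 SE with an adjusted p of 0.236 by edgeR. SLC7A11, the cystine carrier, is shared with the glutathione supply genes and with targets of the stress factor ATF4. It was at 80.5, 19.9 and 43.1 CPM in OE, against 8.10, 5.01 and 13.0 CPM in VEC, with every OE library above every VEC library. It had the largest log2 fold change of the list, 2.46 ± 0.51 SE, with an adjusted p of 0.0557 by edgeR, and passed without OE replicate 1 (1.85, 0.0291) and without OE replicate 2 (2.82, 0.000273). SLC7A11 did not pass without OE replicate 3 (2.53, 0.196) or without VEC replicate 1, 2 or 3 (2.40, 2.16 and 2.87, with adjusted p of 0.277, 0.210 and 0.135). AKR1B10, an aldo-keto reductase, was the lowest, with 7, 7 and 5 counts in OE and 23, 22 and 21 counts in VEC. Its log2 fold change was -1.76 ± 0.41 SE with an adjusted p of 0.0716 by edgeR, and without OE replicate 2 it passed as lower (-1.94, 0.0188), which it did not without any other single library (-1.80 to -1.58). The peroxiredoxin PRDX1 (-0.31), the porphyrin transporter ABCB6 (-1.02) and the carbonyl reductase CBR3 (-0.59), named after their values were seen, were also below VEC in all 3 OE libraries. ABCB6 was near the floor, with 6, 8 and 11 counts in OE and 21, 13 and 18 counts in VEC (adjusted p of 0.331 by edgeR).

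Without OE replicate 2, 3 other targets passed as higher and 3 as lower, beside 12.1% and 10.4% of all tested genes. On the higher side were GCLC, the catalytic subunit of glutathione synthesis from glutamate and cysteine, UGDH, which makes UDP-glucuronate, and SLC7A11. AKR1B10, CBR3 and the haem transporter SLC48A1 were on the lower. Their GC contents were 43.9%, 43.5% and 35.9% on the higher side and 45.9%, 58.9% and 57.2% on the lower. Counted transcripts averaged 51.4% and 52.4% GC in OE replicates 1 and 3, against 52.0%, 53.4% and 52.9% in VEC replicates 1 to 3. The part of GC content in these calls was not tested. After GC correction, 11 passed as higher and 2 as lower, beside 10.4% and 9.87% of all tested genes. These 11 included HMOX1 (0.69), ABCC3 (0.66), the ferritin heavy chain FTH1 (0.58) and GCLC (0.49), and the 2 were AKR1B10 (-1.81) and CBR3 (-0.50). GCLC, UGDH, SLC48A1 and FTH1 were named after their values were seen.

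**Figure D4:**
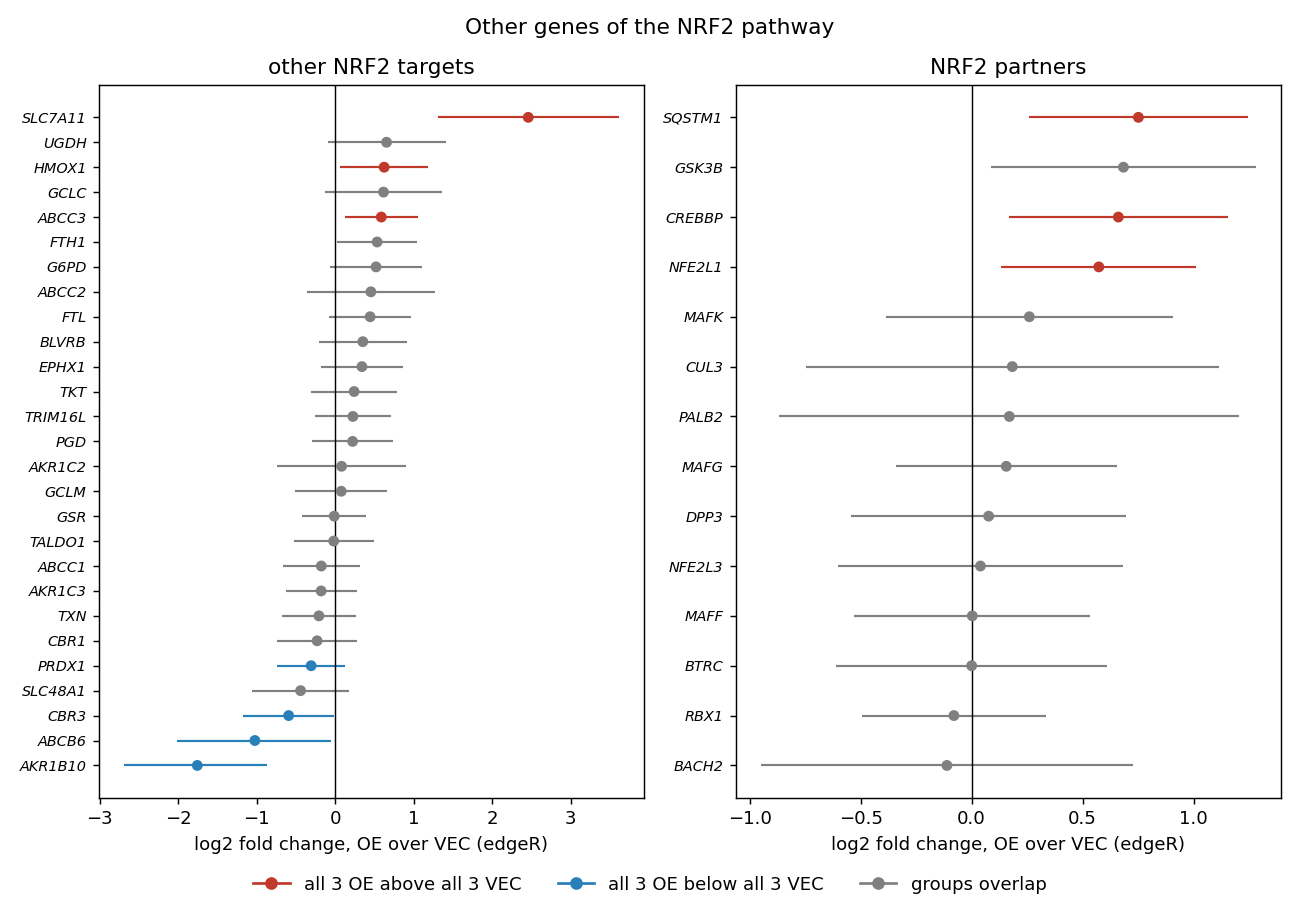
Log2 fold change of OE over VEC with its 95% interval (edgeR, 6 libraries) for 27 other NRF2 targets, left, and 14 partners and regulators, right, each panel with its own axis. Red marks genes with all 3 OE libraries above all 3 VEC libraries, blue those with all 3 below, grey the rest. SLC7A11 and AKR1B10 lie farthest out, at 2.46 and -1.76.

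Genes for proteins that act with NRF2 were compared next. Of 14 partners, related factors and degradation components, all were tested and edgeR called 0, with 4 higher and 0 lower before adjustment (28.6% and 0% of the list, beside 7.25% and 6.86% of all tested genes), and neither DESeq2 nor limma on log2 FPKM called any. The median log2 fold change was 0.16, with 12 of 14 values above 0, beside 54.9% over all tested genes. MAFF and BTRC counted as above 0 at 0.00, and 10 values were above 0 with DESeq2, with DESeq2 size factors and with the replicate block, where the median was 0.08. After GC correction 9 were above 0, and 8 with GC correction and the block and without OE replicate 1. In 3 genes, 21.4% beside 9.26% of all tested genes, every OE library was above every VEC library.

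SQSTM1, the autophagy receptor p62 that can draw KEAP1 away from NRF2, was at 962, 1553 and 1212 CPM in OE, against 679, 765 and 770 CPM in VEC. Its log2 fold change was 0.75 ± 0.22 SE, with an adjusted p of 0.155 by edgeR, and the lowest OE library was above the highest VEC library. It passed without OE replicate 1 (0.90, 0.0430) and without OE replicate 2 (0.56, 0.0188), and did not pass without OE replicate 3 (0.77, 0.494) or without VEC replicate 1, 2 or 3 (0.69, 0.75 and 0.78, with adjusted p of 0.442, 0.449 and 0.445). The related factor NFE2L1 (0.57 ± 0.20 SE) was at 628, 818 and 650 CPM in OE, against 432, 505 and 472 CPM in VEC. The coactivator CREBBP (0.66 ± 0.22 SE) was at 39.9, 36.9 and 39.0 CPM in OE, against 20.3, 28.9 and 24.1 CPM in VEC. Both were separated between the groups, with edgeR adjusted p of 0.219 and 0.207. GSK3B (0.68 ± 0.27 SE), a kinase that marks NRF2 for degradation apart from KEAP1, overlapped between groups because OE replicate 2, at 24.2 CPM, was just below VEC replicate 3, at 24.7 CPM. These 4 genes passed as higher without OE replicate 2, beside 12.1% of all tested genes, and after GC correction, beside 10.4%. The log2 fold change was 0.18 ± 0.42 SE for CUL3, the ligase scaffold, and 0.00, 0.16 and 0.26 for the small MAF genes MAFF, MAFG and MAFK. CUL3, BTRC and the MAF genes were named after their values were seen, and none of them passed without OE replicate 2 or after GC correction. MAFK passed with GC correction and the replicate block (0.30, adjusted p = 0.0483), and CUL3 was at -0.16 after GC correction and -0.27 without OE replicate 1.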

How the data were processed

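The deposited tables held whole-number counts per gene and FPKM per gene, both made by the authors, for 6 libraries whose columns were matched to samples by name. HISAT2 2.0.5 and hg19 are named in the submitters' processing notes. All 58735 genes equal GENCODE 29 on GRCh38 in start, end and strand, a later build than hg19, so GRCh38 coordinates are printed. Neither the counting program nor its use of strand is given in the sources used here, so values of overlapping genes are uncertain. Under R 4.3.3, edgeR 4.0.16 tested the counts by quasi-likelihood after TMM scaling and filterByExpr (count of 10, total of 15), with dispersions estimated robustly and p-values adjusted over 14520 genes by Benjamini-Hochberg at 0.05. Fold changes are OE over VEC. Standard errors were derived from the coefficient and its F value. An exact permutation test at 3 per group has a smallest p of 0.1, so none was run. Transcript GC content (GENCODE 29) was known for 58676 genes, and its correction removed a loess trend (span 0.3) in each library. Correlations used log2 CPM with a prior count of 2.

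Members and lists were chosen with earlier results of these data known. The text names all members, the 4 genes of smallest p in each list, AKR1C2, AKR1C3 and the 3 genes most like NFE2L2, beside genes said to be added. Alternatives used DESeq2 1.42.0, limma 3.58.1 on log2 FPKM with pseudocounts of 1 and 0.1 (filter 0.5 FPKM in 3 libraries, or none), other filters, a replicate block, GC correction and omitted libraries. A pseudocount understates changes of low genes. The steps were also run on simulated counts that held no GC trend and no replicate effect. Such counts cannot show how well the GC correction or the replicate block removes either. Figures used Python 3.11.15 and matplotlib 3.10.9.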

Additional observations from a re-analysis of the deposited data

How the results depend on the processing

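With the edgeR test, members called higher numbered 0. They numbered 2 after GC correction and 2 with the replicate block, beside 10.4% and 6.96% of all tested genes called higher. With GC correction and the block they numbered 3, beside 11.7%, and without both libraries numbered 2 also 3, beside 10.3%. Over the fits without 1 library they numbered 0 to 4, beside 0.101% to 12.1%. No alternative called a member lower. Other targets called, in either direction, numbered 0, and 1 with DESeq2, 1 with no filter, 13 after GC correction, 5 with the block, 12 with both, 5 without both libraries numbered 2 and 0 to 6 without 1 library. Partners called numbered 0, and 4 after GC correction, 4 with the block, 5 with both, 4 without both libraries numbered 2 and 0 to 4 without 1 library. Beside these, calls over all genes, in either direction, numbered 181 of 14520 tested. They were 523 of 16720 with DESeq2, 688 of 27310 with no filter and 12 of 27310 with limma on log2 FPKM with no filter. With the block they were 1937 of 14520, after GC correction 2937 of 14518 and with both 3304 of 14518. Without both libraries numbered 2 they were 2754 of 14737. Without 1 library they ran from 25 (OE replicate 3, of 14896, or VEC replicate 1, of 14913) to 3366 of 14974 (OE replicate 2). Apart from the libraries left out, the cause of these differences was not tested.

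Same-numbered libraries deviated together with correlations of 0.45, 0.58 and 0.03. OE replicates 1 and 2 were closest to the VEC library of their own number, and OE replicate 3 to VEC replicate 1 (0.22). With 3 libraries a group and a shared GC trend, these values cannot settle whether the numbers pair the samples. Over 17 alternatives, 8 members kept their direction, KEAP1 kept it in 16 and PIR in 14. The common biological coefficient of variation was 26.6%, and at 3 libraries a group it left wide intervals, such as 0.01 to 1.66 for NFE2L2 and -0.25 to 1.79 for BACH1, which limits what can be detected.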
